A study of Mus musculus with 5 samples.

Results

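The 10 genes described here encode the core of MHC class I antigen presentation: the classical heavy chains H2-K1 and H2-D1, the light chain B2m, the peptide transporter and its partner (Tap1, Tap2 and Tapbp), the catalytic subunits of the immunoproteasome (Psmb8, Psmb9 and Psmb10) and the transcriptional regulator Nlrc5. They were taken by gene name, with no threshold on their values, although earlier results of these data were known, and every probe whose accession matched 1 of these symbols was taken. This gave 15 of the 56605 probes on the array, of which 14 passed the filter on dim probes, and each gene was represented by its brightest probe among 32917 tested features. Each of these 10 probes was above background on every array by the scanner software's criterion (well above background).

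The study looked for genes of the colon under the control of IL-11. RNA of whole colon from wild-type C57BL/B6 mice was labelled with 1 dye and hybridised to mouse gene expression arrays, 1 mouse per array. The 3 NT-3N mice received NT-3N intravenously, a modified human IL-11 that acts as a receptor agonist, and were killed at 3 hr. The 2 Control mice have no injection in their labels and were untreated per the study, so injection and agonist cannot be told apart. The dose is written as 10 mg in the design text and with the same figure in micrograms in the methods, so its unit is unsettled. The injected mice were 8 weeks old, and the labels give no sex. No group carried a transgene or a deletion. The 5 arrays shared 1 slide and 1 scan time. The p-values measure only the spread between these mice.

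MHC class I molecules show peptides from proteins made inside a cell to CD8 T cells. Proteasomes cut the proteins, the TAP transporter carries the peptides into the endoplasmic reticulum, tapasin holds the transporter against an empty heavy chain, and the loaded heavy chain leaves for the surface together with beta-2 microglobulin. Interferons raise most of these genes through IRF1 and NLRC5, and intestinal epithelial cells, leukocytes and endothelial cells all make class I molecules, so in a bulk sample such as whole colon fewer cells of a type and less RNA per cell cannot be told apart.

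Of the 10 genes, 7 lie on chromosome 17 in the mouse MHC, where Psmb9, Tap1, Psmb8 and Tap2 are neighbours, while B2m lies on chromosome 2 and Psmb10 and Nlrc5 on chromosome 8. RefSeq promoter windows of 300 bases were at hand for 8 of the 10 genes in assembly GRCm38.p6. The sequences upstream of the start are given for the 3 genes whose proteins form the class I molecule, because the lowest p-values of the pathway were found among them, and for the interval that Tap1 and Psmb9 share between their opposite starts. They run 5′ to 3′, and capitals mark matches to an NF-kB motif (GGGNNTTCC), an IRF element (GAAANNGAA), a CRE core (TGACG) or a Y box (ATTGG, or CCAAT on the other strand). The regions are chr17:34000348-34000597 on the minus strand for H2-K1 (the first of its 2 windows), chr17:35262844-35263093 on the plus strand for H2-D1, chr2:122147437-122147686 on the plus strand for B2m and chr17:34187331-34187555 on the plus strand, which is read toward Tap1, for the shared interval.
H2-K1: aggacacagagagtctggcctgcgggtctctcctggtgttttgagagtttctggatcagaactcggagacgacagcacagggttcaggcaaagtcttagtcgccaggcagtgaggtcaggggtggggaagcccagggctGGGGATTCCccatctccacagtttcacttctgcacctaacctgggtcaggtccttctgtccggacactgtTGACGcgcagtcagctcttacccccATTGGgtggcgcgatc
H2-D1: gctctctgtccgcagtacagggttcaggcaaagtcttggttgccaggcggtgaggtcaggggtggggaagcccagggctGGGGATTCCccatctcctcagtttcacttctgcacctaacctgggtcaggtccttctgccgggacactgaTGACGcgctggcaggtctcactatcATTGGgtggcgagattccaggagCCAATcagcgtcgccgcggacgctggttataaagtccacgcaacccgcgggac
B2m: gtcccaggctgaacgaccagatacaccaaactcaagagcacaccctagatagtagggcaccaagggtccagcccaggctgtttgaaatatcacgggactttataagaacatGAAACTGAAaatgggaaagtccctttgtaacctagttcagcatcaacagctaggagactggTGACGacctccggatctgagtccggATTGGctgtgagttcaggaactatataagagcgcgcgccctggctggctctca
Tap1 and Psmb9: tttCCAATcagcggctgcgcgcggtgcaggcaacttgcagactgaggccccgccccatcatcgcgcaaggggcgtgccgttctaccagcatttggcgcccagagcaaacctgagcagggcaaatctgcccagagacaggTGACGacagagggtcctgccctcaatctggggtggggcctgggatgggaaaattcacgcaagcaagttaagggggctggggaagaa

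The promoters of the heavy chains were alike in layout. In both H2-K1 and H2-D1 the NF-kB match GGGGATTCC was followed after 70 bases by the CRE core and after a further 25 bases by the Y box, counted from start to start. B2m held no match to the letters GGGNNTTCC, but it had the CRE core and the Y box at the same 25 bases. The only match to the letters GAAANNGAA among the 8 genes with a window began 139 bases before the start of B2m. In the interval between Tap1 and Psmb9 the Y box match began 222 and the CRE core match 86 bases before the start of Tap1. Read toward Psmb9, the CRE core came first. The spacing of 25 bases was not found there, nor was a match to the NF-kB or IRF letters. This spacing of 25 bases was noticed after the sequences had been seen. It was taken from the H2-K1 window, so H2-K1 matches by construction. The spacing occurred in 31 of 32851 mouse promoter windows, or 0.0944%, and in 3 of the 8 class I genes with a window.

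Searched on both strands of the windows of these 8 genes, the NF-kB motif was in 2 genes, against 5.82% of all windows. The IRF element was in 1 of 8 against 8.56%, and the interferon gamma-activated site TTCNNNGAA was in 1 of 8, Psmb8, against 8.3%. The CRE core was in 5 of 8 against 20.8%, and the Y box in 6 of 8 against 37.4%. A match describes letters in the window and does not show that a factor was bound. Sites that differ from these letters were not searched, so a window without a match may still hold a site.

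No gene of the class I pathway passed an adjusted p of 0.05 in limma, in either direction. Among all features 0.125% were called higher and 0.0182% lower. The log2 fold change, NT-3N minus Control, was negative for 8 of the 10 genes, as it was for 53.6% of all features, and its median was -0.18 against -0.02 over all features. At an unadjusted limma p under 0.05, H2-D1 and B2m were lower, which is 2 of 10 against 4.67% of all features, and 0 of 10 were higher against 4.95%. For these same 2 genes every NT-3N array lay under every Control array, against 14.8% of all features, and 0 of 10 genes had all NT-3N arrays above all Control arrays, against 13.5%. The 2 genes at an unadjusted p under 0.05 became 1 without NT-3N replicate 3 and 5 without NT-3N replicate 1. In those fits 1281 and 2669 of 32917 features were lower at that threshold, against 1538 with all 5 arrays. Without Control replicate 2 the median log2 fold change of the 10 genes was -0.04. With 2 arrays against 3, an exact two-sided permutation test of 1 gene cannot go below p = 0.1.

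**Figure D1:**
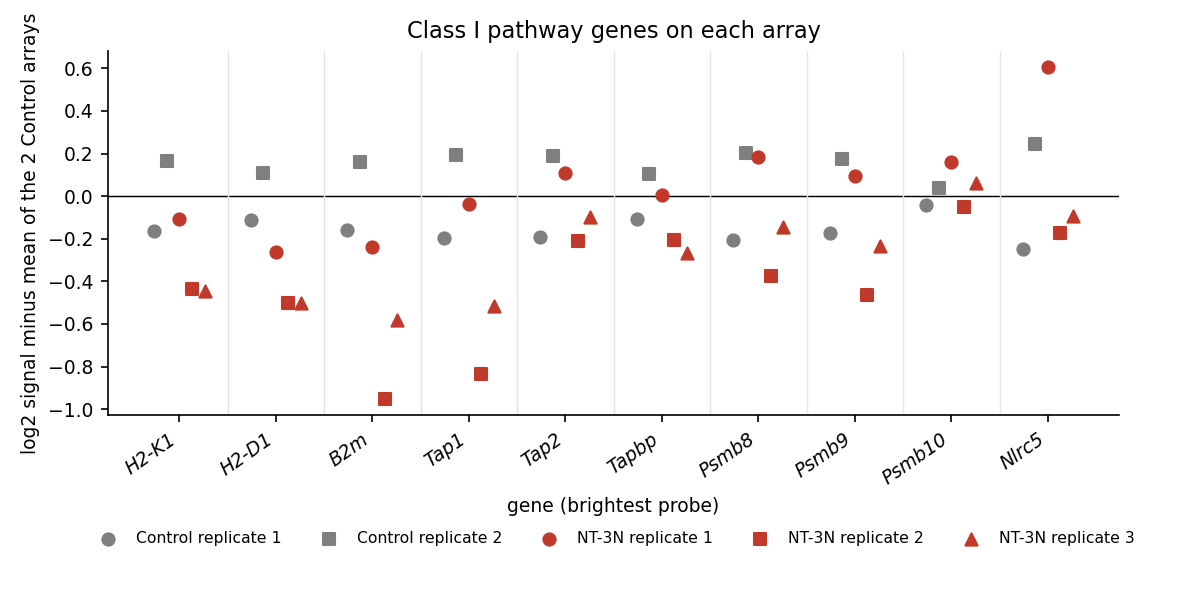
Log2 signal of each class I pathway gene on each array (vertical axis), as the difference from the mean of the 2 Control arrays, for the brightest probe of each of the 10 genes (horizontal axis). Grey symbols are Control and red symbols NT-3N mice, 1 symbol per array. Control replicate 2 is above Control replicate 1 for all 10 genes, and NT-3N replicate 1 is above the other NT-3N arrays for all 10.

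The arrays of 1 group kept a similar order over these genes. Control replicate 2 was the highest of the 5 arrays for 8 genes, and NT-3N replicate 2 was the lowest for 7. NT-3N replicate 1 exceeded Control replicate 1 for 8 of 10 genes, whereas NT-3N replicate 2 lay under both Control arrays for 9 and NT-3N replicate 3 for 6. The SD within a group ranged from 0.054 to 0.35 on the log2 scale in Control and from 0.10 to 0.43 in NT-3N. The genes share their arrays, so this order is a property of 5 mice and not of 10 independent measurements.

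The subunits of the class I molecule had the most negative log2 fold changes beside Tap1. H2-D1, a classical heavy chain, had a log2 signal of 15.43 and 15.65 in Control and of 15.28, 15.04 and 15.04 in NT-3N. The groups did not overlap. Its log2 fold change was -0.42 (standard error, SE, 0.11, 95% confidence interval -0.68 to -0.15), a signal 1.33-fold lower, with an unadjusted limma p of 0.00763 and an adjusted p of 0.32. B2m, the light chain that every class I molecule needs, was at 15.52 and 15.84 in Control and at 15.44, 14.73 and 15.10 in NT-3N. Again each NT-3N array was under each Control array, with NT-3N replicate 1 only just under Control replicate 1. The difference was -0.59 on the log2 scale (SE 0.21, 95% confidence interval -1.10 to -0.08), or 1.51-fold lower, with an unadjusted limma p of 0.0287 and an adjusted p of 0.47.

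H2-K1, the other classical heavy chain, was measured by 2 probes. The brighter gave a log2 signal of 16.52 and 16.85 in Control and 16.58, 16.25 and 16.24 in NT-3N, so the groups overlapped through NT-3N replicate 1. Its log2 fold change was -0.33 (SE 0.14, 95% confidence interval -0.67 to 0.01), with a limma adjusted p of 0.53. On the dimmer probe the values were 15.39 and 15.67 in Control and 15.31, 14.97 and 15.05 in NT-3N, and here the groups did not overlap. That probe had a log2 fold change of -0.42, an unadjusted limma p of 0.0162 and an adjusted p of 0.40 over all probes.

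Of the loading machinery, Tap1 differed more than its partner Tap2 in point estimate, although this difference between the genes was not tested. Tap1, which forms the transporter together with Tap2, had a log2 signal of 10.83 and 11.22 in Control and of 10.99, 10.19 and 10.51 in NT-3N on its brighter probe. NT-3N replicate 1 lay between the Control arrays and the other NT-3N arrays lay under both. The log2 fold change was -0.47 (SE 0.24, 95% confidence interval -1.05 to 0.12), with a limma adjusted p of 0.61. The dimmer Tap1 probe read 8.32 and 8.78 in Control and 8.26, 7.56 and 8.04 in NT-3N, without overlap, and its log2 fold change was -0.60, with an unadjusted limma p of 0.0444 and an adjusted p of 0.51 over all probes. Both probes of Tap1 and both of H2-K1 thus had the same sign.

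Tap2 was at 12.49 and 12.87 in Control and at 12.79, 12.47 and 12.58 in NT-3N, and the groups overlapped. Tap2 differed by -0.06 on the log2 scale (SE 0.15, 95% confidence interval -0.42 to 0.29). A further Tap2 probe was well above background on 0 of 5 arrays and was not tested. Tapbp, which encodes tapasin, was at 14.20 and 14.41 in Control and at 14.31, 14.10 and 14.04 in NT-3N. NT-3N replicate 1 lay between the Control arrays. Tapbp differed by -0.15 on the log2 scale (95% confidence interval -0.42 to 0.11), and -0.07 on its dimmer probe.

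The immunoproteasome subunits replace constitutive subunits of the proteasome and favour peptides that fit class I molecules. Psmb8 was at 11.17 and 11.58 in Control and at 11.56, 11.00 and 11.23 in NT-3N, with a log2 fold change of -0.11 (95% confidence interval -0.59 to 0.36). Psmb9 read 11.88 and 12.23 in Control and 12.15, 11.59 and 11.82 in NT-3N, with a log2 fold change of -0.20 (95% confidence interval -0.65 to 0.25). For both genes NT-3N replicate 1 lay between the Control arrays, so the groups overlapped. Psmb10, the remaining subunit, had a log2 signal of 14.93 and 15.01 in Control and of 15.13, 14.92 and 15.03 in NT-3N. Its log2 fold change of 0.06 had the narrowest interval of the 10 genes, from -0.14 to 0.26, and its groups overlapped. The constitutive counterparts had log2 fold changes of -0.09 for Psmb5, 0.06 for Psmb6 and -0.02 for Psmb7.

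Nlrc5, a transactivator of class I genes, was at 8.67 and 9.17 in Control and at 9.53, 8.75 and 8.83 in NT-3N. NT-3N replicate 1 was the highest of the 5 arrays, and the other NT-3N arrays lay between those of Control. Nlrc5 had a log2 fold change of 0.11 (SE 0.27, 95% confidence interval -0.54 to 0.77), the widest interval of the 10 genes. A dimmer Nlrc5 probe had the opposite sign (log2 fold change -0.12, unadjusted limma p 0.586), so the probes of Nlrc5 set no direction.

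**Figure D2:**
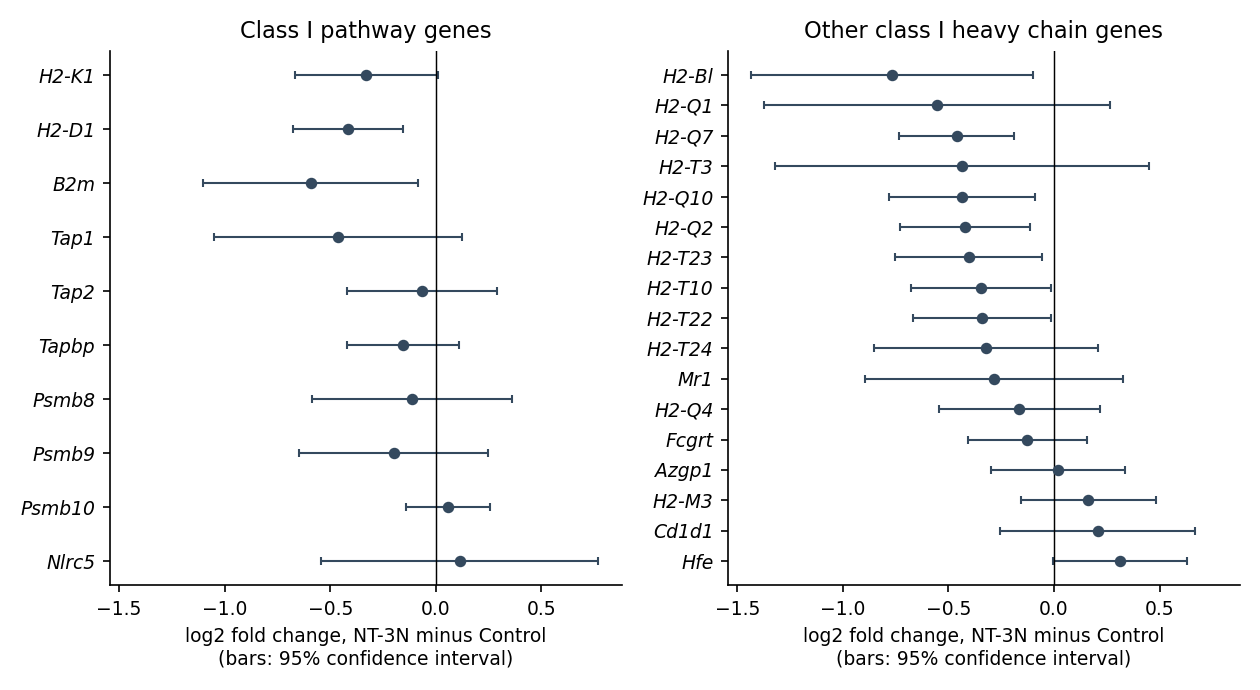
Log2 fold change, NT-3N minus Control, with its 95% confidence interval from limma for the 10 class I pathway genes (left) and the 17 tested genes of other class I heavy chains (right). The intervals of H2-D1 and B2m end under 0 (at -0.15 and -0.08), that of H2-K1 ends at 0.01, and those of the other pathway genes span 0.

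Most other class I heavy chains also had negative log2 fold changes. Of 19 such genes listed, 17 were tested, and H2-Q6 and H2-M2 had no matched probe. The log2 fold change was negative for 13 and positive for 4, with a median of -0.34, and 0 passed an adjusted p of 0.05. At an unadjusted limma p under 0.05, 7 of the 17 were lower and 0 higher, against 4.67% and 4.95% of all features. In 8 every NT-3N array lay under every Control array and in 1 above, against 14.8% and 13.5% of all features. The count of 7 was 10 without NT-3N replicate 1, 3 without NT-3N replicate 2 and 2 without NT-3N replicate 3. In those fits 2669, 1159 and 1281 of 32917 features were lower at that threshold, against 1538 with all 5 arrays.

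H2-Q7, which encodes the nonclassical molecule Qa-2, had a log2 signal of 14.77 and 14.97 in Control and of 14.59, 14.33 and 14.31 in NT-3N. It differed by -0.46 on the log2 scale with an unadjusted p of 0.00576, and had the smallest adjusted limma p of these genes, 0.29. H2-T23 encodes Qa-1, which presents leader peptides of other class I molecules, and it was at 15.60 and 15.89 in Control and at 15.57, 15.16 and 15.28 in NT-3N. NT-3N replicate 1 was again the nearest to Control for both genes. The difference, NT-3N minus Control, was -0.40 for H2-T23, -0.42 for H2-Q2, -0.44 for H2-Q10, -0.35 for H2-T10, -0.34 for H2-T22 and -0.77 for H2-Bl, all as log2 fold changes. The genes of this family resemble each other closely in sequence, and whether a probe also bound the RNA of a relative was not tested.

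Among class I relatives outside the H2-Q and H2-T groups, the sign was mixed. H2-M3, which presents formylated peptides, had a log2 fold change of 0.16, Cd1d1, which presents lipids, of 0.21, and Hfe, which acts in iron balance, of 0.31 without overlap between the groups. For Fcgrt, the neonatal Fc receptor, it was -0.13, and for Mr1, which presents vitamin metabolites, -0.28. Azgp1, a soluble relative, was at 0.02. These 6 were named after their values had been seen, and none had an unadjusted p under 0.05. The promoter spacing of CRE core and Y box was found for 27 named genes, 23 of them tested, of which 12 had a negative log2 fold change. H2-M3 was among the 27, with the opposite sign to H2-K1, H2-D1 and B2m.

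No gene in the rest of the pathway passed an adjusted p of 0.05. Among 11 tested genes for peptide loading and trimming, 5 had a negative and 6 a positive log2 fold change, with a median of 0.03, and 0 had an unadjusted limma p under 0.05. Calr, the chaperone calreticulin that joins the loading complex, had a log2 fold change of -0.31 with an unadjusted limma p of 0.0746. For Tapbpl, a peptide editor related to tapasin, it was 0.13, and for Erap1, which trims peptides in the endoplasmic reticulum, also 0.13. Among 17 tested genes of the proteasome and its activators, 6 were negative and 11 positive, with a median of 0.04 and 0 at an unadjusted limma p under 0.05. Psme1, a subunit of the interferon-induced activator, had a log2 fold change of 0.01, and Psme2 had no matched probe.

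Regulators of class I genes had no common sign, with 7 of 16 negative and 9 positive and a median of 0.04. At an unadjusted limma p under 0.05, 3 of the 16 were higher and 1 was lower, against 4.95% and 4.67% of all features. In 4 of the 16 every NT-3N array lay above every Control array and in 0 under, against 13.5% and 14.8%. The 3 higher genes were Irf2 with a log2 fold change of 0.34, Rela, a subunit of NF-kB, with 0.26, and Nfyb with 0.25. Nfyb is a subunit of the Y box factor. For each the unadjusted limma p was between 0.0157 and 0.037, and the groups did not overlap. Irf1 and Rfx5, further activators of class I promoters, had log2 fold changes of -0.14 and 0.24.

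Of the interferons, Ifng was well above background on 1 of 5 arrays and Ifnb1 on 0, so neither was tested. The median was -0.04 over the log2 fold changes of the 11 tested interferon ligands, receptors and signalling genes. At an unadjusted limma p under 0.05 Jak1, named after its value was seen, was the only 1 of the 11, with 0.21. Over all features 4.95% were higher at that threshold and 4.67% lower. Of 22 tested genes known to respond to interferon, 16 had a negative and 6 a positive log2 fold change, with a median of -0.39, and 0 passed an adjusted p of 0.05. At an unadjusted limma p under 0.05, 6 were lower and 3 higher, against 4.67% and 4.95% of all features. The groups did not overlap for 7 that were lower and 3 that were higher, against 14.8% and 13.5% of all features. The 6 lower genes were Rsad2, an antiviral enzyme, with a log2 fold change of -2.05, Usp18 with -1.93, Ifit2 with -1.80, Ifit1 with -1.76, Isg15, a ubiquitin-like protein, with -1.75 and the GTPase Irgm1 with -0.93. The 3 higher genes, Gbp2 with 1.17, Gbp5 with 1.64 and Iigp1 with 1.71, also encode interferon-inducible GTPases.

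**Figure D3:**
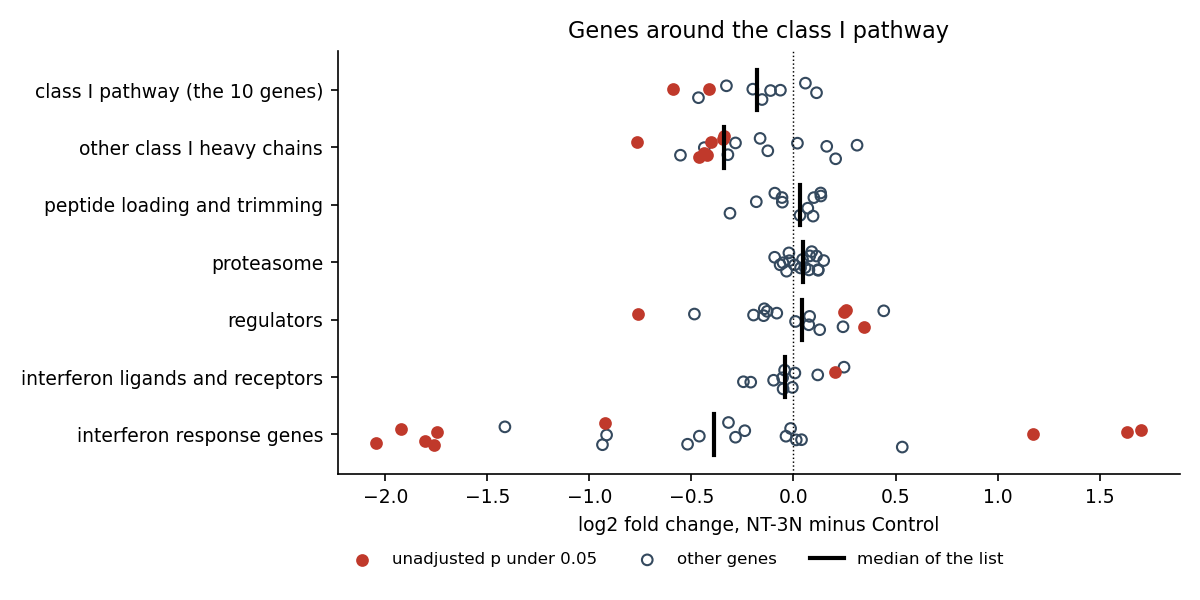
Log2 fold change, NT-3N minus Control, of each tested gene in 7 lists around the class I pathway (1 circle per gene; vertical spread within a row only separates the circles). Filled circles have an unadjusted limma p under 0.05, and the bar is the median of the list. The medians are -0.18 for the 10 genes, -0.34 for other class I heavy chains, 0.03, 0.04, 0.04 and -0.04 for the next 4 lists, and -0.39 for interferon response genes.

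The values of the 10 genes rested on single arrays to a different degree. Their median log2 fold change lay between -0.34 without Control replicate 1 and -0.04 without Control replicate 2. B2m ranged from -0.77 to -0.41, H2-D1 from -0.52 to -0.31, H2-K1 from -0.49 to -0.16 and Tap1 from -0.68 to -0.27, so these 4 were negative in all 5 fits. Psmb9 and Tapbp also remained negative and Psmb10 positive in all 5. Tap2, Psmb8 and Nlrc5 had either sign. Tap2 had a log2 fold change of 0.12 without Control replicate 2 and -0.25 without Control replicate 1.

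**Figure D4:**
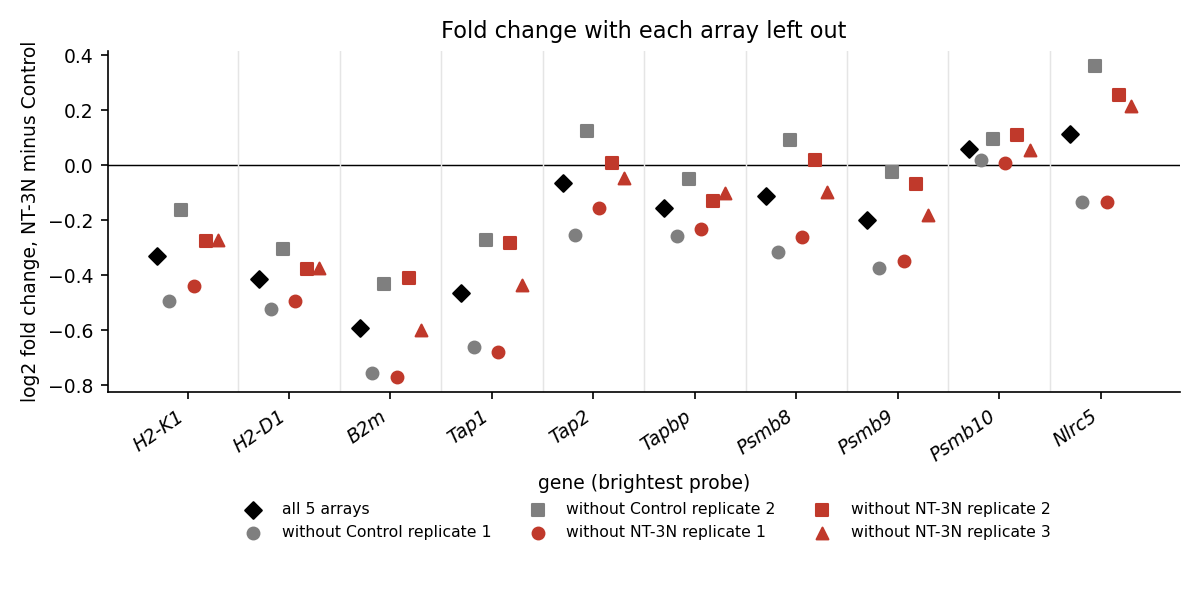
Log2 fold change, NT-3N minus Control (vertical axis), of the 10 class I pathway genes (horizontal axis) with all 5 arrays (black diamonds) and with each array left out (grey for Control arrays, red for NT-3N arrays). H2-K1, H2-D1, B2m and Tap1 are under 0 in every fit, and Tap2, Psmb8 and Nlrc5 are on both sides of 0.

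On all arrays 70.6% to 73.1% of probes were well above background and no spot was saturated. Socs3, a feedback inhibitor induced through gp130 and STAT3, rose by 2.71 on the log2 scale with an adjusted limma p of 0.00875, and its call was lost without NT-3N replicate 2 (adjusted p 0.0598) and without NT-3N replicate 3 (adjusted p 0.118). As the label colon implies, the 11 epithelial and 6 smooth muscle markers were above background on every array. Summed over each list, epithelial markers had a linear signal of 957000 to 1010000 in Control and 869000 to 1040000 in NT-3N, T and NK cell markers (9 of 10 tested) of 5160 to 5170 and 4670 to 6630, macrophage and dendritic cell markers (7 of 8) of 7390 to 8090 and 6430 to 9190, and endothelial markers (5 of 5) of 1730 to 1820 and 1690 to 2060. The groups overlapped in each of these lists. Smooth muscle markers summed to 446000 to 460000 in Control and 326000 to 417000 in NT-3N, without overlap. For 5 of the 6 every NT-3N array lay under every Control array, against 14.8% of all features. Fibroblast markers (5 of 5) summed to 48300 to 51700 in Control and 43900 to 62100 in NT-3N, with overlap. The leukocyte marker Ptprc had a log2 signal of 10.06 and 9.26 in Control and of 9.84, 9.97 and 10.15 in NT-3N. The 8 B cell markers summed to 1200 on Control replicate 2, the array on which most class I pathway genes were highest. They summed to 4700 to 5670 on the NT-3N arrays and 5140 on Control replicate 1. Not every marker followed the sum. Ms4a1 was at 4.95 and 6.53 in Control and at 9.54, 9.13 and 9.51 in NT-3N. It was the only 1 of the 8 without overlap, against 13.5% of all features higher without overlap. Pax5 was the only 1 with a negative log2 fold change, -0.23. Ncr1 and Xcr1 were well above background on 0 arrays. The part of these cell types in the values of the class I genes was not tested.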

How the data were processed

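Whole-colon RNA of 5 mice (2 Control, 3 NT-3N, grouped by the labels) was measured on single-colour Agilent arrays. The authors extracted the arrays with Agilent Feature Extraction 11.0.1.1, per the submitters' processing notes. The deposited scanner values are spot intensities after background subtraction and detrending, unscaled between arrays. The authors' table of deposited log2 values correlated with the quantile-normalized log2 processed signal at 0.999983 or more on each array and served as an alternative.

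Control spots and outlier spots (69 to 184 of 59305 spots per array) were left out, spots of 1 probe were averaged on the log2 scale, and the arrays were quantile-normalized. Probes had to be well above background on at least 2 arrays and to have values on both Control and at least 2 NT-3N arrays. Unversioned accessions were matched to RefSeq symbols (GRCm38.p6) for 32994 of 56605 probes, and 41590 probes were tested. Each gene took its brightest probe, leaving 32917 features, 17945 with a symbol. Groups were compared two-sided with limma 3.58.1 in R 4.3.3 (lmFit, then eBayes with the trend option), with Benjamini-Hochberg adjustment over all features, or over all probes for further probes, at a threshold of 0.05. The local-pooled-error test of the study's methods was an alternative. Others were 75th percentile and median scaling, normexp with an offset of 50 (on the median spot signal, planned on the mean, which the scanner values used here lack), other filters on dim probes, fits without the trend or with robust variance, array weights, a replicate block, the mean of or every one of a gene's probes, features with a symbol alone, and each array left out. The tests were also run on simulated data drawn from limma's own variance model with independent errors. Such data cannot show how the tests behave on these arrays. Python 3.11.15, pandas 2.3.3 and matplotlib 3.10.9 made tables and plots.

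The members and gene lists were chosen with earlier results of these data known. All 10 genes are named with all their probes. From the related lists are named the genes with an adjusted p under 0.05, up to 20 more by size of log2 fold change at an unadjusted p under 0.05, and a fixed set of pathway genes, of which 1 is not reported here. The headers give another genome build for the array than that of the promoter windows, so promoters were matched by symbol. The small number of arrays limits the precision.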

Additional observations from a re-analysis of the deposited data

How the results depend on the processing

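No alternative called any of the 10 class I pathway genes at an adjusted p under 0.05, and the smallest adjusted p among them was 0.0799, for B2m in the local-pooled-error test. Their median log2 fold change was negative in all 19 alternatives and lay between -0.34 and -0.04 when 1 array was left out. In the main fit 2 of these genes were lower at an unadjusted p under 0.05, as were 1538 of 32917 features. The count was 1 with no filter on dim probes (2035 of 45574 features) and 1 with no intensity trend (1551 of 32917). It was 4 both with array quality weights (2422 of 32917) and with the local-pooled-error test (620 of 32917). When 1 NT-3N array was left out it was from 1 to 5, with 1159 to 2669 of 32917 features lower. For the other class I heavy chains the count of 7 was 4 with no filter and 3 with no intensity trend. It was 9 with array quality weights, 6 with the local-pooled-error test and from 2 to 10 when 1 NT-3N array was left out. The same counts over all features apply to it. The local-pooled-error test called 1 of them lower, H2-Q1, at -0.76 on the log2 scale (adjusted p 0.0471). The cause was not tested.

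With the replicate number as a block, 0 of the 10 genes and 2 of the other heavy chains were lower at an unadjusted p under 0.05. Over all features the count was 1350 of 32917. Arrays with the same number had deviations from their group mean that correlated at 0.13 and 0.036. The 2 Control arrays deviate from their mean by equal and opposite amounts, so these values are not independent. They cannot decide whether the numbers pair the mice. NT-3N replicate 3 has no partner, so the block gives the fold changes that leaving it out gives, from fewer arrays.

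Signs turned for some genes with log2 fold changes near 0. When 1 array was left out, Tap2 ranged from -0.252 to 0.12, Psmb8 from -0.316 to 0.091, Nlrc5 from -0.134 to 0.36, Fcgrt from -0.276 to 0.025, Azgp1 from -0.081 to 0.12, Psmb7 from -0.116 to 0.071 and Psme1 from -0.075 to 0.074. Azgp1 was at -0.0089 with the block. With array weights Nlrc5 was at -0.051, Psmb7 at 0.012 and Psme1 at -0.056, and in the local-pooled-error test they were at -0.091, 0.021 and -0.016. Nlrc5 was at -0.0037 with the mean of its probes, Psmb7 at 0.0064 with median scaling and Psme1 at -0.026 with normexp. Isg15 and Rsad2 passed an adjusted p of 0.05 in the local-pooled-error test, Gbp2 and Iigp1 there, with array weights and without NT-3N replicate 1, and Gbp5 without NT-3N replicate 1. Socs3 did not pass it with no filter (0.0913), no intensity trend (0.0725) or the block (0.462). Of 893 values of the 47 genes followed, 854 kept their sign and their side of the threshold. All 5 arrays share 1 slide, so no slide or scan block could be fitted.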
